A study of Mus musculus with 12 samples.

Results

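The genes described here encode the proteins of the cytosolic ribosome. They were taken by symbol from an array table of mouse blood progenitors: every gene with a single-symbol probe set whose symbol began with Rpl or Rps followed by a digit or the letter p, without the S6 kinases (Rps6k) and without pseudogenes marked "-ps". A gene with more than 1 probe set was represented by the brightest of them on average over all 12 arrays. This gave 62 of the 19937 genes measured, from 190 probe sets, and 37 of the 62 had more than 1 probe set. Of the 62, 53 encode proteins of the standard ribosome (30 of the large subunit, 20 of the small subunit and 3 of the stalk) and are called core members here. The remaining 9 are paralogs outside the standard set or genes that only share the name pattern (Rpl3l, Rpl7l1, Rpl10l, Rpl32l, Rpl39l, Rps4l, Rps23rg1, Rps27l and Rps19bp1). Another 20 matching symbols were found only on probe sets that carry several symbols, among them Rpl3, Rpl11, Rps26 and Rps27, and were not analysed here.

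The study asked how loss of Lamtor2 changes blood progenitors. Cells were sorted from bone marrow at day 14 after intraperitoneal pIpC, a synthetic RNA that induces interferon and with it the Mx promoter, and total RNA was hybridised to Affymetrix arrays. LSK KO cells (Lin- Sca1+ c-kit+, the fraction with stem and multipotent cells) came from C57BL/6J Mx-Cre mice with floxed Lamtor2 alleles (Lamtor2 f/f). LSK WT cells came from C57BL/6J Mx-Cre mice with wild-type Lamtor2 (wt/wt). GMP KO and GMP WT cells (Lin- Sca1- c-kit+ CD34+ FcγR+, the granulocyte and macrophage progenitors) came from mice of the same genotypes. All groups thus carried Mx-Cre and were given pIpC. The Mx promoter is not restricted to blood cells, so the deletion need not have been limited to the sorted populations. There were 3 arrays in each group, labelled as replicates. The replicate labels do not say that each was a separate mouse, and do not tie LSK to GMP samples of a mouse. The limma p-values weigh a difference between groups against the spread between these samples.

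Ribosomal proteins are made in near equal numbers and joined to ribosomal RNA in the nucleolus. Their mRNAs belong to the TOP class, which begin with a C followed by a run of pyrimidines. Through this run the kinase complex mTORC1 and the binding protein LARP1 control chiefly how well the mRNAs are translated and how stable they are. Lamtor2 is a subunit of the LAMTOR (Ragulator) complex, which holds the Rag GTPases on the lysosome and so allows amino acids to activate mTORC1. In blood formation, shortage of single ribosomal proteins is known for the anaemias it causes, such as Diamond-Blackfan anaemia with RPS19. The arrays measured mRNA abundance only, not translation.

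The starts of 5 members are shown because the results turn on them or because they serve as their counterparts: Rpl12, Rpl14 and Rpl22, which differed between KO LSK and KO GMP cells, Rps6, the substrate of the S6 kinases, and Rps4x, the main copy beside Rps4l. Each sequence runs from 50 bases before to 25 bases after the annotated start of the gene, 5′ to 3′ on the strand of the gene, from RefSeq on GRCm38.p6. Capitals mark pyrimidine runs (a C followed by at least 5 C or T) that begin within 30 bases of the start on either side. Rpl22 has 2 annotated starts.
Rpl12, chr2:32961662-32961736, plus strand: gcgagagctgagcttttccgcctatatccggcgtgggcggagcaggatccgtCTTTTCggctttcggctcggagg
Rpl14, chr9:120571467-120571541, plus strand: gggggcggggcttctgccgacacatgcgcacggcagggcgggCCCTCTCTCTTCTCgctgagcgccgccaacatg
Rpl22, the first start, chr4:152325676-152325750, plus strand: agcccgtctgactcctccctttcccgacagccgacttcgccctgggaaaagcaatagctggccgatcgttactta
Rpl22, the second start, chr4:152324386-152324460, plus strand: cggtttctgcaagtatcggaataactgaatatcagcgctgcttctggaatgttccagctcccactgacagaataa
Rps6, chr4:86857343-86857417, minus strand: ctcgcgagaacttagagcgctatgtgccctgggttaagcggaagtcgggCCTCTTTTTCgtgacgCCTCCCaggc
Rps4x, chrX:102189367-102189441, minus strand: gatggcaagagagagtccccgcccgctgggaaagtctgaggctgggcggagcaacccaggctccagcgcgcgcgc

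The Rpl14 run is 14 bases long, the Rpl12 run 6, and the Rps6 runs 10 and 6. No such run lies within the window at either Rpl22 start or at the Rps4x start, which says only that these letters are not there. Promoters were listed for 50 of the 62 members (250 bases before to 50 after the start), and 36 of these 50 genes (72%) held a run in the window against 44.9% of all 27025 genes with a listed promoter. The Ets-type motif CCGGAAG, on either strand, was found in the promoters of 18 of the 50 genes (36%) against 9.93% of all genes. The E-box CACGTG, which reads the same on both strands and is bound by Myc among others, was found in 5 (10%) against 8.09%. These matches describe the letters and not binding. The members without a listed promoter were Rpl7, Rpl8, Rpl21, Rpl23a, Rpl29, Rpl30, Rpl36, Rplp1, Rps4l, Rps14, Rps20 and Rps29.

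Lamtor2 itself checked the genotype labels: its log2 value averaged 5.43 ± 0.33 in LSK KO and 10.39 ± 0.09 in LSK WT cells (SD, n = 3 each), and 5.20 ± 0.30 in GMP KO and 10.74 ± 0.12 in GMP WT cells. An exact two-sided permutation test gave p = 0.1 in each cell type, the smallest value that 3 arrays against 3 allow. All 8 measured LSK markers were higher and all 10 GMP markers lower in LSK WT than in GMP WT cells by limma. The same held between LSK KO and GMP KO cells, so both sorts carried their defining markers. Mean levels of some marker lists moved with genotype, those of the sorted cells among them. The level of the mature neutrophil list varied widely within every group. The 14 macrophage markers averaged 7.67 to 8.09 in GMP KO and 6.07 to 6.15 in GMP WT arrays, with 9 past the threshold, and 6.37 to 7.20 in LSK KO and 5.74 to 5.96 in LSK WT arrays, with 5 past it. The GMP list averaged 9.19 to 9.69 in LSK KO and 7.96 to 8.80 in LSK WT arrays. Dendritic cell markers averaged 6.80 to 7.09 in LSK KO and 7.20 to 7.33 in LSK WT arrays, and overlapped between GMP KO and GMP WT. B cell markers averaged 5.57 to 5.72 in LSK KO and 5.79 to 6.29 in LSK WT arrays, and 5.63 to 5.70 in GMP KO and 5.97 to 6.19 in GMP WT. The mature neutrophil list averaged 7.17 to 9.03 in LSK KO and 7.60 to 9.65 in LSK WT arrays. In GMP KO it averaged 7.39 to 9.33 and in GMP WT 7.61 to 9.86. In sorted bulk cells, fewer cells of a type and less RNA per cell cannot be told apart, and the part of these shifts in any result here was not tested. Replicate 1 of GMP KO stood apart: it had the lowest array weight in limma (0.19) and the lowest mean of the core members (12.19 on the log2 scale, against 12.24 to 12.39 on the other 11 arrays).

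Core ribosomal protein mRNAs differed little between KO and WT cells in both cell types, on values the authors normalised with RMA. None of the 53 core members passed the test for KO against WT in LSK or in GMP cells (limma, Benjamini-Hochberg adjusted p under 0.05 over all 19937 genes), where 4.44% of all genes passed in LSK and 16.1% in GMP. An unadjusted p under 0.05 was reached by 5 core members in LSK, where 15.9% of all genes reached it, and by 1 in GMP, where 28.1% did. Of all 62 members, 0 were higher and 1 was lower in LSK KO than in LSK WT cells, against 2.49% higher and 1.96% lower among all genes. In GMP KO against GMP WT cells 1 was higher and 1 lower, against 5.78% and 10.3% among all genes. Without replicate 1 of GMP KO the counts in GMP were 1 higher and 2 lower, the added one being Rpl7l1 (-0.35, limma adjusted p = 0.0494).

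The sizes were small and the bounds narrow. The median log2 difference of KO minus WT over the 62 members was -0.0038 in LSK, where it was -0.013 over all genes, and 0.0078 in GMP, where it was 0.015 over all genes. The median in GMP was -0.062 when each array was centred on its median gene. For 51 of the 53 core members in LSK the 95% interval of the difference lay within a 1.5-fold change either way, with Rpl12 and Rpl29 as the exceptions, and for 52 of 53 in GMP, with Rpl7a as the exception. The same held for 83% of all genes in LSK and 73.3% in GMP. Core members also varied little between replicates: the median SD within a group was 0.066 on the log2 scale, against 0.15 over all genes. They are bright, with core values of up to 13.85 on arrays whose brightest probe set lay between 14.01 and 14.20, and whether brightness near the top of the range narrows differences was not tested.

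**Figure D1:**
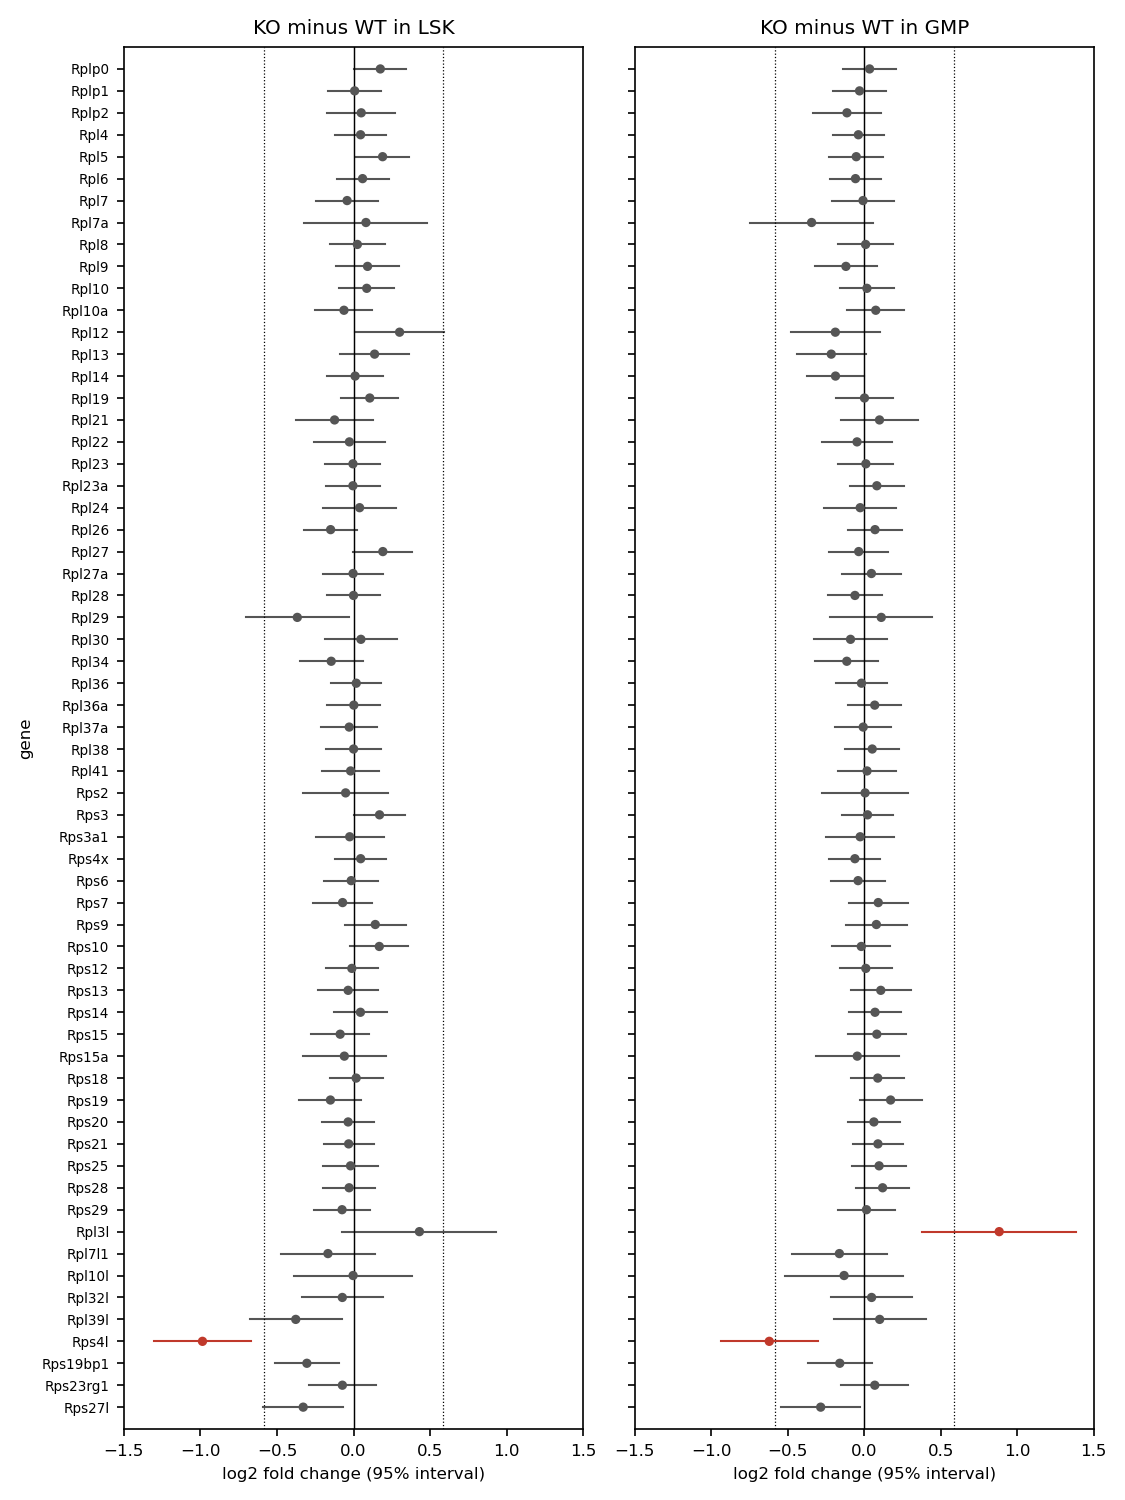
Log2 difference of KO minus WT for each of the 62 genes in LSK (left) and GMP cells (right), with 95% intervals from limma (3 arrays a group). Dotted lines mark a 1.5-fold change and red marks adjusted p under 0.05. Only Rps4l is red in LSK, and Rps4l and Rpl3l in GMP.

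Some core members had groups that did not overlap. Of the core members, 13 were higher and 2 lower on all LSK KO arrays than on all LSK WT arrays, which is 28.3% against 25.5% of all genes (12.4% higher and 13.2% lower). In GMP cells 5 were higher and 4 lower, which is 17% against 29.6% of all genes (12% higher and 17.6% lower). Among genes with a mean above 12, none of the 42 members passed for KO against WT in either cell type, while 3 of the 77 other genes in that range (3.9%) passed in LSK and 15 (19.5%) in GMP. No test of the members against these genes was made.

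**Figure D2:**
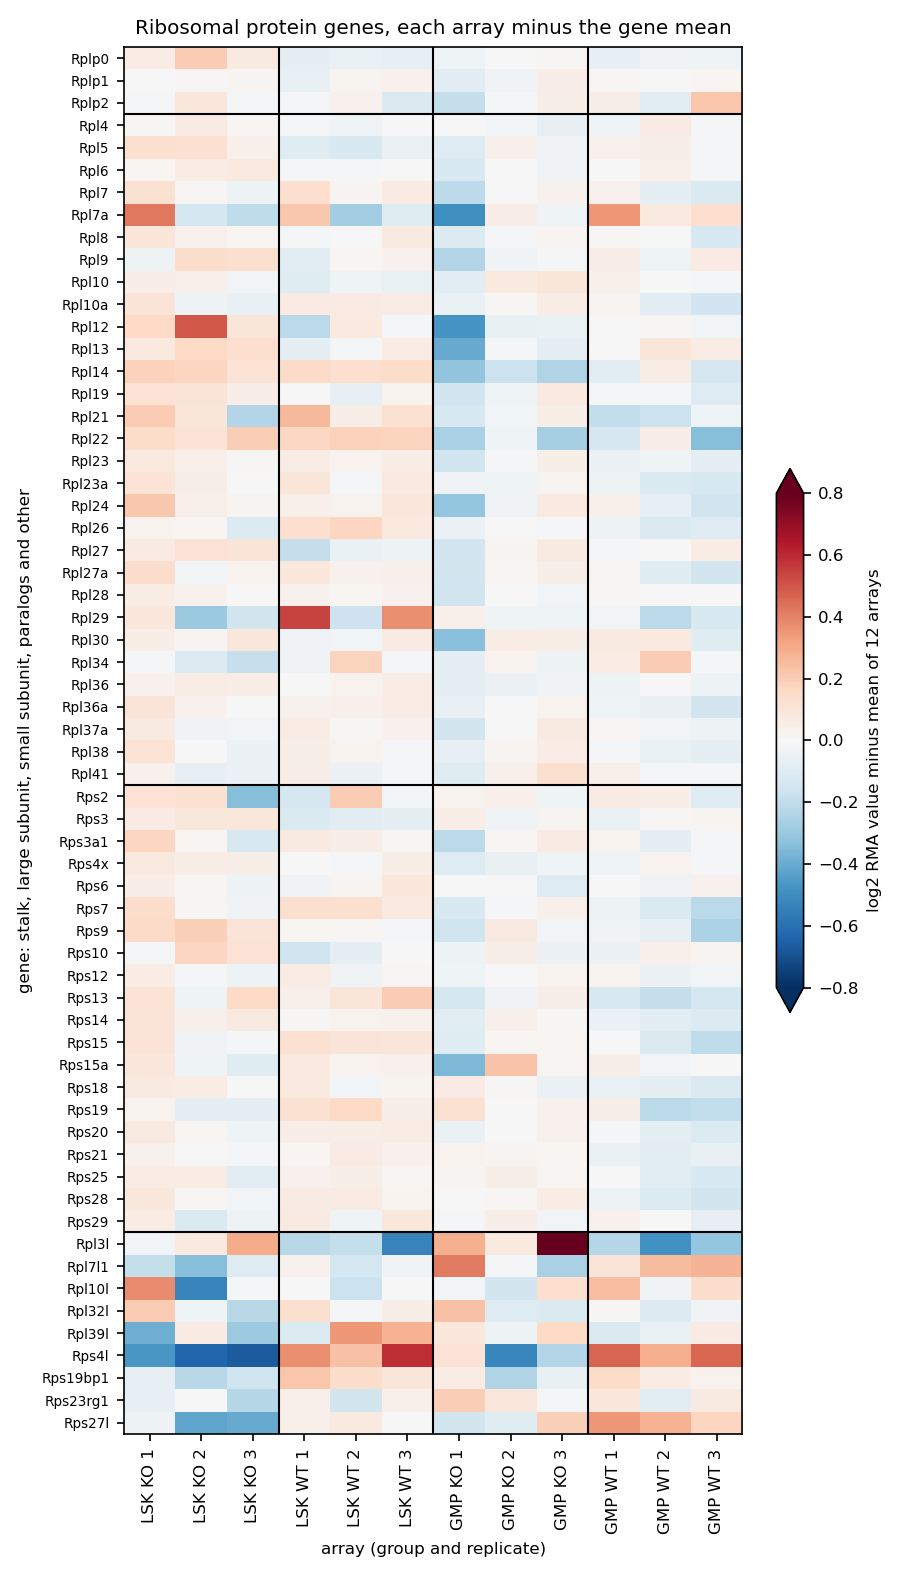
Log2 value of each array minus the mean of the 12 arrays for each gene, in blocks of stalk, large subunit, small subunit and other members, with LSK arrays left of GMP arrays and KO left of WT within each. Most core genes stay pale in every group, and the column of replicate 1 of GMP KO is bluer than its neighbours, with a core mean of 12.19.

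The stalk proteins Rplp0, Rplp1 and Rplp2 bind the translation factors on the large subunit. Rplp0, the base of the stalk, read 13.11, 13.25 and 13.12 in LSK KO arrays, against 12.98, 13.00 and 12.98 in LSK WT arrays. All 3 KO arrays lay above the WT arrays, yet the difference of 0.18 (SE 0.08) missed the threshold (limma adjusted p = 0.296). In GMP cells it was 0.04 (SE 0.08, limma adjusted p = 0.83). Rplp1 and Rplp2, which bind Rplp0 as dimers, differed by 0.01 and 0.05 in LSK and by -0.03 and -0.11 in GMP, none past the threshold.

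Among large subunit proteins, Rpl5 joins the 5S ribosomal RNA and, when assembly fails, can bind Mdm2 and so stabilise p53. Rpl5 read 12.51, 12.50 and 12.42 in LSK KO arrays, against 12.28, 12.26 and 12.32 in LSK WT arrays. The groups did not overlap, but the difference of 0.19 (SE 0.08) did not pass (limma adjusted p = 0.26). In GMP KO arrays it read 12.27, 12.42 and 12.35, against 12.41, 12.42 and 12.36 in GMP WT arrays, a difference of -0.05 (SE 0.08, limma adjusted p = 0.746) with overlapping groups.

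Rpl12, a protein near the stalk base, and Rpl13 were the 2 members whose groups lay apart in opposite directions in the 2 cell types. Rpl12 read 7.83, 8.17 and 7.77 in LSK KO arrays, against 7.45, 7.75 and 7.66 in LSK WT arrays, and 7.20, 7.61 and 7.61 in GMP KO arrays, against 7.66, 7.68 and 7.64 in GMP WT arrays. The KO arrays were all higher in LSK and all lower in GMP. The effect was 0.30 (SE 0.14) in LSK and -0.19 (SE 0.14) in GMP, and the difference of the effects, 0.49 (SE 0.19), did not pass (limma adjusted p = 0.149). Rpl13 read 13.06, 13.14 and 13.12 in LSK KO arrays, against 12.90, 12.96 and 13.04 in LSK WT arrays. In GMP KO arrays it read 12.58, 12.96 and 12.91, against 12.98, 13.08 and 13.04 in GMP WT arrays. The lowest value was that of replicate 1 of GMP KO, and the difference of the effects was 0.35 (SE 0.15, limma adjusted p = 0.178). The Rpl12 probe set lists no accession of the RefSeq gene, so its identity is less sure than that of 59 of the 62 members. Rplp2 and Rps3a1 share this limit.

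Rpl29 and Rpl7a, 2 other large subunit genes, had wide intervals. Rpl29 averaged 8.07 ± 0.19 in LSK KO and 8.44 ± 0.37 in LSK WT cells (SD, n = 3 each), and its difference of -0.37 (SE 0.16) did not pass (limma adjusted p = 0.253). Rpl7a differed by -0.34 in GMP (SE 0.19, limma adjusted p = 0.257), with all KO arrays below the WT arrays. Over all 62 members the test of the difference between the KO effects in LSK and GMP passed for none, where it passed for 7.98% of all genes (5.34% more positive and 2.64% more negative in LSK). An unadjusted p under 0.05 was reached by 5 members, against 22.3% of all genes.

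In the small subunit, Rps6 is the protein that the S6 kinases phosphorylate downstream of mTORC1. Its mRNA read 13.72, 13.68 and 13.62 in LSK KO arrays, against 13.63, 13.68 and 13.75 in LSK WT arrays. In GMP KO arrays it read 13.66, 13.66 and 13.56, against 13.67, 13.63 and 13.70 in GMP WT arrays. The groups overlapped in both cell types, and the differences were -0.02 in LSK and -0.04 in GMP (SE 0.08 each, limma adjusted p = 0.968 and 0.813). The phosphorylation of the protein was not measured.

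Rps19, whose human counterpart is the gene most often mutated in Diamond-Blackfan anaemia, read 11.80, 11.70 and 11.69 in LSK KO arrays, against 11.90, 11.93 and 11.82 in LSK WT arrays. All KO arrays were lower, with a difference of -0.15 (SE 0.09) that did not pass (limma adjusted p = 0.506). In GMP cells the difference was 0.17 (SE 0.09, limma adjusted p = 0.258), and the difference of the effects was -0.32 (SE 0.13, limma adjusted p = 0.167). Rps3, a protein of the mRNA entry site that also takes part in DNA repair, differed by 0.17 in LSK (SE 0.08, limma adjusted p = 0.299) with groups apart, and by 0.02 in GMP.

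The changes that passed lay in genes outside the standard ribosome. Rps4l is named after its likeness to Rps4x and is annotated by RefSeq as a transcribed pseudogene, whereas the other 61 members are annotated as protein coding. Rps4l read 6.94, 6.77 and 6.74 in LSK KO arrays, against 7.78, 7.64 and 7.996 in LSK WT arrays. In GMP KO arrays it read 7.53, 6.88 and 7.17, against 7.87, 7.70 and 7.87 in GMP WT arrays. No KO array reached a WT array of its cell type. Rps4l fell by 0.99 on the log2 scale in LSK KO cells (SE 0.15, limma adjusted p = 0.0016) and by 0.62 in GMP KO cells (SE 0.15, limma adjusted p = 0.011), or by 0.79 without replicate 1 of GMP KO. The call in GMP was narrowly lost when only the 6 GMP arrays were fitted (adjusted p = 0.0503), and the effects did not differ past the threshold between the cell types (-0.37, SE 0.21, limma adjusted p = 0.331).

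A second Rps4l probe set gave the same direction when all probe sets were fitted separately, a fit chosen after seeing the data: -0.70 in LSK (limma adjusted p = 0.00988) and -0.62 in GMP (limma adjusted p = 0.00722). Rps4x, the X-linked small subunit gene that it resembles, read 13.18, 13.15 and 13.15 in LSK KO arrays, against 13.10, 13.10 and 13.15 in LSK WT arrays. Its difference was 0.05 in LSK and -0.06 in GMP (SE 0.08 each, limma adjusted p = 0.872 and 0.677). Because the sequences are alike, how much Rps4x RNA binds the Rps4l probes was not tested.

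Rpl3l encodes a paralog of Rpl3 used mainly in heart and skeletal muscle. It read 5.77, 5.57 and 6.75 in GMP KO arrays, against 5.26, 5.01 and 5.18 in GMP WT arrays. All KO arrays were higher, and replicate 3 of GMP KO lay well above the others. Rpl3l rose by 0.88 on the log2 scale in GMP KO cells (SE 0.23, limma adjusted p = 0.0203), and the call was lost when only the 6 GMP arrays were fitted (0.0849), without replicate 2 of GMP WT (0.087) and without replicate 3 of GMP WT (0.0553). Its difference was 0.52 on the log2 scale without replicate 3 of GMP KO and 1.01 without replicate 1. In LSK the difference was 0.43 (SE 0.23, limma adjusted p = 0.418). The WT values lie where Lamtor2 reads after its deletion (4.95 to 5.77). Replicates 1 and 2 of GMP KO (5.77 and 5.57) and the LSK KO arrays (5.46, 5.56 and 5.78) lie within or at the edge of that range. No detection call was given, so whether the gene is detected at all in WT cells or on these KO arrays was not tested.

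**Figure D3:**
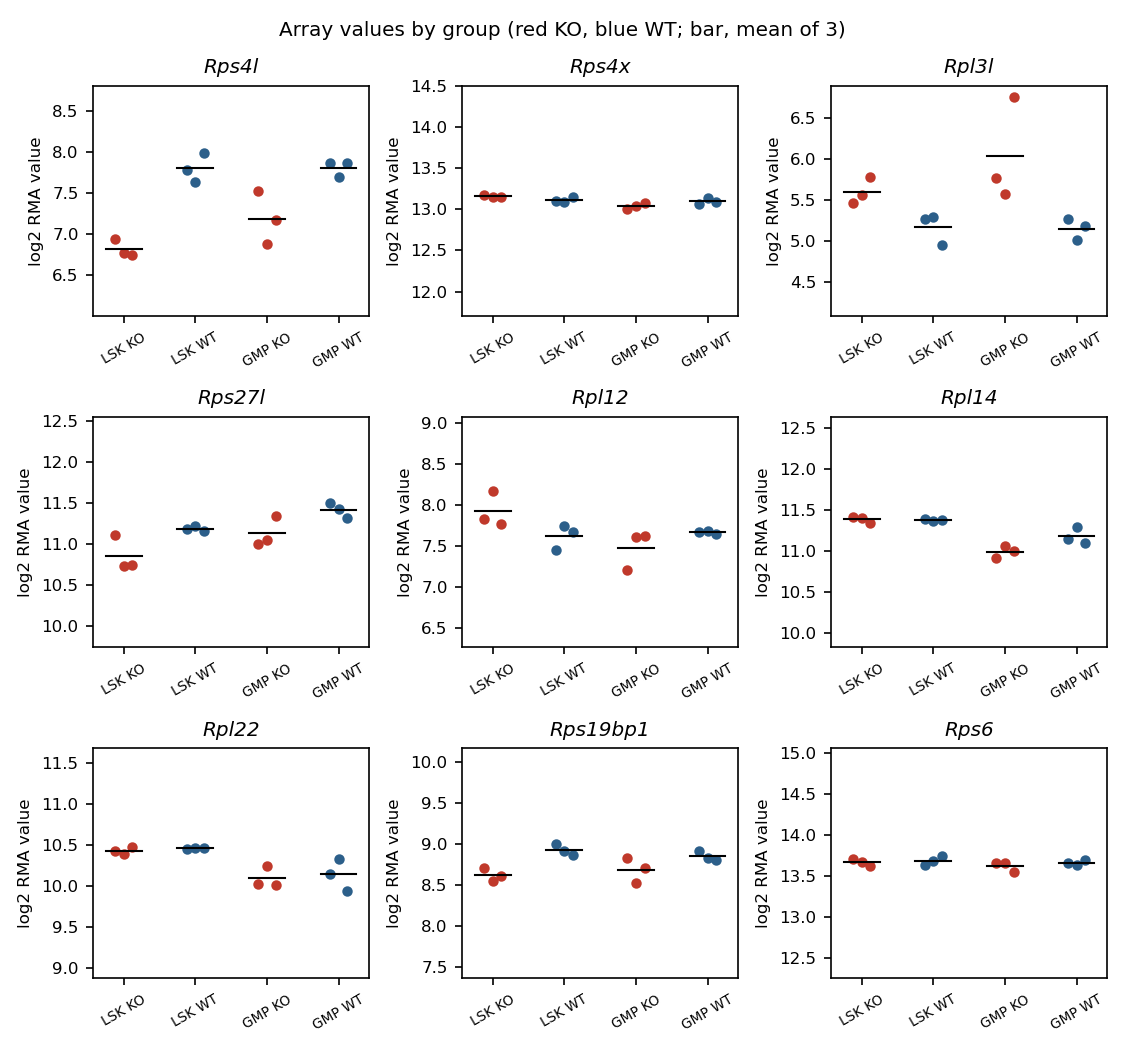
Log2 value on each array for 9 members, with LSK left of GMP, KO (red) left of WT (blue) and bars at the mean of 3 arrays. Each panel spans 2.8 log2 units around the mean of its gene. The KO points of Rps4l lie below the WT points in both cell types, while those of Rps6 and Rps4x overlie the WT points at this scale.

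Other paralogs did not pass in the main fit. Rps27l, a paralog of Rps27 known as a p53 target, read 11.11, 10.73 and 10.75 in LSK KO arrays, against 11.19, 11.23 and 11.16 in LSK WT arrays, with no overlap and a difference of -0.33 (SE 0.12, limma adjusted p = 0.168). In GMP KO arrays it read 11.004, 11.06 and 11.34, against 11.50, 11.43 and 11.32 in GMP WT arrays, a difference of -0.28 (SE 0.12, limma adjusted p = 0.138). With an array left out, its limma adjusted p in GMP lay between 0.0456 and 0.33. Rps19bp1, a nucleolar regulator that binds Rps19 and is no ribosomal protein, read 8.70, 8.55 and 8.61 in LSK KO arrays, against 8.997, 8.91 and 8.87 in LSK WT arrays. Its groups did not overlap, and the difference of -0.30 (SE 0.10) did not pass (limma adjusted p = 0.104). Over all settings run, the limma adjusted p of Rps19bp1 in LSK lay between 0.0392 and 0.298. Rpl39l, a paralog of Rpl39 known from testis, differed by -0.38 in LSK and 0.10 in GMP with values near the bottom of the array range. Rpl7l1 differed by -0.17 and -0.16, and Rpl10l, another paralog known from testis, by -0.00 and -0.13. Of the core members of these pairs, Rpl7 differed by -0.04 in LSK and -0.01 in GMP, and Rpl10 by 0.09 and 0.02. Rpl22 differed by -0.03 and -0.05, and Rpl36a by 0.00 and 0.07, with none past the threshold.

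Between the cell types of WT mice no member passed. In LSK WT against GMP WT cells none of the 62 members passed in limma, where 19.6% of all genes did (10.3% higher and 9.32% lower). An unadjusted p under 0.05 was reached by 9 members, against 29.2% of all genes. The median difference of LSK WT minus GMP WT was 0.05 over the members and -0.03 over all genes, and the member median was -0.042 when each array was centred on its median gene. Of the core members, 23 were higher and 4 lower on all LSK WT arrays than on all GMP WT arrays, which is 50.9% against 40.6% of all genes (19.1% higher and 21.5% lower). Other settings called up to 7 members higher, as eBayes with trend and robust options did. The nearest to the threshold were Rpl22 (0.32, SE 0.11, limma adjusted p = 0.0535) and Rps13 (0.27, SE 0.09, limma adjusted p = 0.0571).

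In KO cells 3 core members, all of the large subunit, were higher in LSK KO than in GMP KO cells and 0 were lower, where 15.8% of all genes passed (10.1% higher and 5.79% lower). An unadjusted p under 0.05 was reached by 6 of all 62 members, against 31.9% of all genes. Groups did not overlap for 12 core members, all higher in LSK KO, which is 22.6% against 31.5% of all genes (16.3% higher and 15.2% lower). Rpl14 read 11.42, 11.40 and 11.35 in LSK KO arrays, against 10.92, 11.06 and 10.997 in GMP KO arrays. No LSK KO array overlapped a GMP KO array, and the difference was 0.40 (SE 0.09, limma adjusted p = 0.0071). In WT cells it was 0.20 (SE 0.09, limma adjusted p = 0.135), and the interaction, which is the difference between these differences, was 0.20 (SE 0.12, limma adjusted p = 0.376). The call was lost in a fit of the 6 KO arrays alone (adjusted p = 0.0594) and kept without replicate 1 of GMP KO (0.36, adjusted p = 0.0152).

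Rpl22, a large subunit protein that T cell development needs and whose loss is known in leukaemia, read 10.43, 10.39 and 10.47 in LSK KO arrays, against 10.02, 10.25 and 10.01 in GMP KO arrays. It was higher in LSK KO by 0.34 (SE 0.11, limma adjusted p = 0.0484), close to its value in WT. Rpl12, with the KO values given above, was higher in LSK KO than in GMP KO by 0.45 (SE 0.14, limma adjusted p = 0.0406) and differed by -0.04 in WT. Both calls were near the threshold. That of Rpl12 was lost without replicate 1 of GMP KO (0.31, adjusted p = 0.124) or any one LSK KO array, and that of Rpl22 without replicate 1 or 3 of GMP KO or any one LSK KO array.

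**Figure D4:**
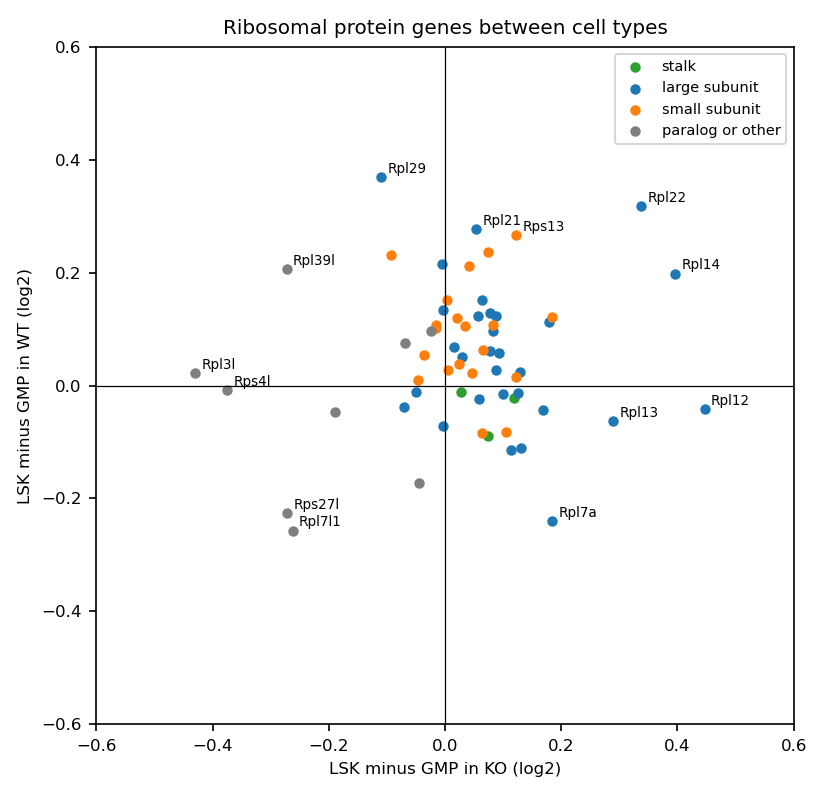
Log2 difference of LSK minus GMP in KO cells (horizontal) and in WT cells (vertical) for the 62 genes, coloured by role, with genes beyond 0.24 in either named. Rpl22 lies near the same value on both axes, at 0.34 in KO and 0.32 in WT, while Rpl12 lies at 0.45 in KO and -0.04 in WT.

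Probe sets of a single member did not always read alike. Fitted separately, 2 of the 190 sets were higher and 2 lower in LSK KO than in LSK WT cells, where 4.23% of all single-symbol probe sets passed. The 2 higher ones were sets of Rpl19, at 0.68 (SE 0.11, limma adjusted p = 0.00409) and 0.48 (SE 0.11, limma adjusted p = 0.0303), while the brightest Rpl19 set did not pass. In GMP 1 set was higher and 3 were lower, where 15.5% of all sets passed, and the set of Rpl13 among these fell by 0.69 (SE 0.19, limma adjusted p = 0.0273). Ribosomal protein genes have many processed pseudogenes, and probes that match several copies can mix their signals, so values of single sets are uncertain.

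Across the 12 arrays, after the group means were taken off, the median pairwise Pearson r between core members was 0.35. This is a description over arrays that share RNA and normalisation. The genes outside the members most like the core mean by the same measure were Rapsn (0.97), Cox7b (0.97), S100a10 (0.95), Pdcd2 (0.95) and Isca1 (0.95).

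Genes that serve the ribosome but lie outside it are given beside the members, and their counts are read against the shares over all genes: 2.49% higher and 1.96% lower in LSK KO, 5.78% higher and 10.3% lower in GMP KO. Of 47 factors of ribosome assembly and RNA polymerase I, 8 were higher and 0 lower in LSK KO than in LSK WT cells, and 0 were higher and 19 lower in GMP KO than in GMP WT cells. The GTPase Gnl3 (nucleostemin) rose by 0.56 in LSK KO (SE 0.09, limma adjusted p = 0.00385). The small subunit assembly factor Ltv1 fell by 0.75 in GMP KO (SE 0.13, limma adjusted p = 0.00153), and Bysl, another factor of small subunit assembly, fell by 0.82 (SE 0.15, limma adjusted p = 0.00228). The effect differed between the cell types for 25 of the 47, all more positive in LSK, where 5.34% of all genes were. The counts depended on single arrays and on the setting. In LSK 1 to 3 were higher whichever of the 6 LSK arrays was left out, and 14 with array weights. In GMP 6 were lower without replicate 2 and 12 without replicate 3 of GMP WT, 16 without replicate 1 of GMP KO, and 27 with each array centred on its median gene. The count of 25 lay between 12 (without replicate 2 of GMP WT) and 27 with an array left out, and was 14, 13, 15 and 14 without replicate 3 of GMP WT, replicate 3 of LSK KO, and replicates 1 and 2 of LSK WT.

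Of 77 mitochondrial ribosomal proteins, which build a separate ribosome in the mitochondrion, 1 was higher in LSK KO (Mrpl19, 0.58, SE 0.11, limma adjusted p = 0.00703) and 29 were lower in GMP KO, among them Mrpl49 (-0.68, SE 0.11, limma adjusted p = 0.000785). The count in GMP KO was 15, 13 and 15 without replicate 1, 2 or 3 of GMP WT, 42 without replicate 3 of GMP KO, and 9 when only the 6 GMP arrays were fitted. Between WT cells 23 were lower and 1 higher in LSK WT than in GMP WT cells, against 9.32% lower and 10.3% higher among all genes. The 23 became 15 without replicate 1 of GMP WT, 15 to 19 with any array left out, 35 with each array centred, and 39 with array weights or when only the 6 WT arrays were fitted.

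Of the 29 measured translation factors and other mRNAs listed as TOP mRNAs from general knowledge, 0 passed in LSK and 2 were lower in GMP KO, against 10.3% of all genes. They were Eef1d (-0.48, SE 0.13, limma adjusted p = 0.0254) and Eif3a (-0.31, SE 0.09, limma adjusted p = 0.0421). Both calls were lost without replicate 1 of GMP KO (adjusted p = 0.0632 for Eef1d and 0.112 for Eif3a), without replicate 2 or 3 of GMP WT, with array weights and when only the 6 GMP arrays were fitted, and the call of Eif3a also without replicate 1 of GMP WT. The count in GMP was 1 without replicate 1 of GMP WT, 4 without replicate 3 of GMP KO, and 0 to 6 over all settings run.

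Of 14 measured genes listed as regulators of TOP mRNAs or for the LARP name, 0 passed in LSK. In GMP KO 4 were lower (3 to 4 over all settings run), where 10.3% of all genes were. Among them were Larp1b (-0.86, SE 0.16, limma adjusted p = 0.00259) and Larp7 (-0.54, SE 0.10, limma adjusted p = 0.00288). Larp7 shares the family name, and nothing here ties it to TOP mRNAs. Larp1 itself read 10.51, 10.54 and 10.56 in LSK KO arrays, against 10.27, 10.31 and 10.30 in LSK WT arrays, and it was not among the genes that passed. Of 28 measured p53 targets, 3 were higher and 4 lower in LSK KO, against 2.49% and 1.96% of all genes, with Perp at 1.01 and Sesn1 at -0.66. In GMP KO 6 were higher and 8 lower, against 5.78% and 10.3%. Those with the smallest p were Ckap2 at -1.04 and Gtse1 at -0.83. Other targets had higher means in GMP KO than in GMP WT cells, such as Pmaip1 (7.38 against 6.23) and Gadd45a (8.41 against 7.70). In LSK the targets higher were 1 without replicate 3 of LSK KO or replicate 1 of LSK WT, and those lower were 1 to 2 whichever LSK array was left out. In GMP those lower were 5 without replicate 1 of GMP KO, 4 and 3 without replicate 1 or 2 of GMP WT, and 2 when only the 6 GMP arrays were fitted. The targets higher in GMP KO were 5 to 8 over all settings run. Rpsa and Fau, ribosomal proteins whose symbols do not match the pattern, did not pass for KO against WT in either cell type.

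**Figure D5:**
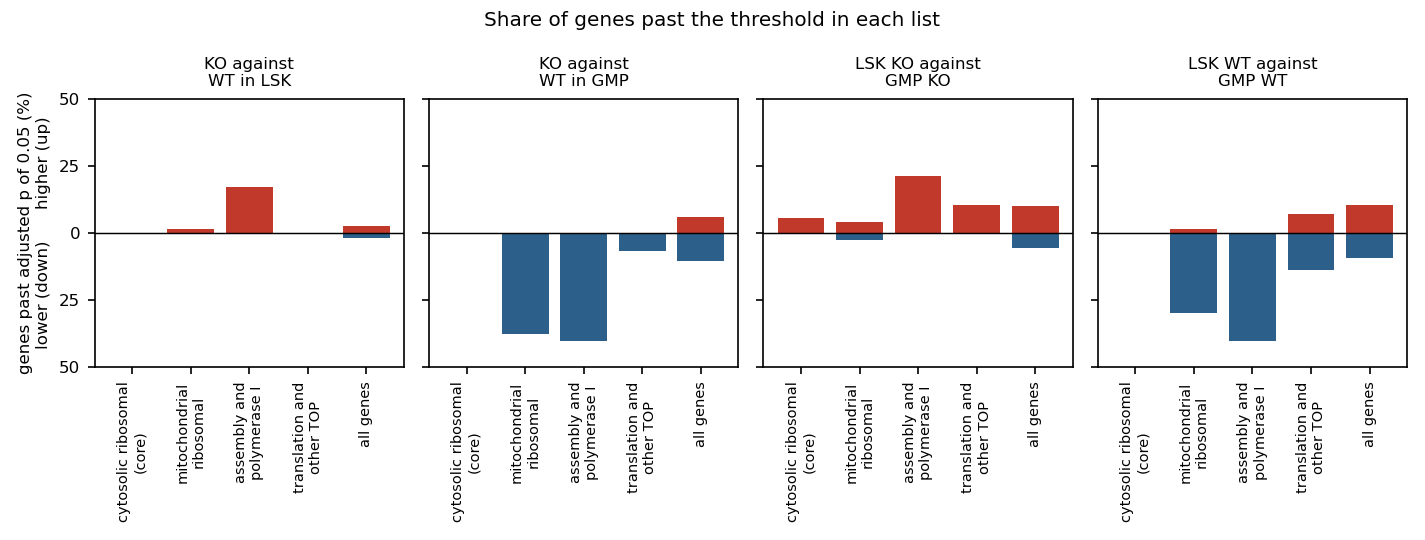
Percent of genes past an adjusted p of 0.05, higher (up, red) or lower (down, blue), for the 53 core members, the mitochondrial ribosomal proteins, the assembly and polymerase I factors, the translation factors and other TOP mRNAs, and all 19937 genes, in 4 comparisons. The bar of the core members is empty for KO against WT in LSK and GMP, where 19 of the 47 assembly factors were lower in GMP KO.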

How the data were processed

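RNA of 12 samples was measured on Affymetrix arrays, 3 per group. The deposited values are log2 intensities made by the authors with RMA (background correction, quantile normalization, probe set summary), per the submitters' processing notes. No source used here gives the program or its version. Of 34760 probe sets, 22961 had an annotation and 21640 a single gene symbol, 21553 of them updated through the gene identifier and 87 kept. The brightest set per gene left 19937 genes.

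All 4 groups were fitted together with limma 3.58.1 in R 4.3.3 (lmFit and eBayes, with 8 residual and 5.16 prior degrees of freedom). Tests were two-sided at a Benjamini-Hochberg adjusted p of 0.05 across all genes. "Passed" means that. Differences are log2 with the standard error (SE). On simulated data for LSK with 200 changed genes in a fit of 19937, 41% of log2 changes of 0.5 and 98% of those of 1 were recovered. In that fit 11 unchanged genes were called. The changed genes were drawn from all genes, with a median SE of 0.121 in LSK against 0.088 over the members. Recovery was therefore not measured for the members, nor for GMP. The number of arrays limits the precision.

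The members, lists and tests were chosen with earlier results of these data known. Named by rule were members past the threshold, the stalk genes, Rpl5, Rps6, Rps19 and the paralog pairs whatever their values, and up to 2 genes per other list by smallest p. Rpl7a, Rpl13, Rpl19, Rpl29, Rps3, Rps13, Larp1, Pmaip1 and Gadd45a were named after their values were seen. No 2 arrays were identical (pairwise r 0.949 to 0.996). Deviations of same-numbered arrays had r of -0.23 to 0.28 over all genes and -0.42 to 0.58 over the members. Over the members, LSK KO and LSK WT had 0.58, 0.55 and 0.05, and LSK KO and GMP WT 0.56, 0.27 and 0.07. LSK WT and GMP WT had 0.45, 0.31 and 0.17, and LSK KO and GMP KO 0.05, 0.18 and 0.21. GMP KO and GMP WT had -0.19, 0.44 and 0.03, and LSK WT and GMP KO 0.03, -0.02 and -0.42. What the numbers mark is not stated, so they were not used as pairs in the main fit. Whether same-numbered arrays share a batch was not tested. Alternatives were another normalization, centring, filters, probe set rules, variance models, array weights, blocks, 6-array fits and each array left out.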

Additional observations from a re-analysis of the deposited data

Results flagged for a closer look

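For 2 members every KO array lay to one side of the WT arrays in LSK and to the other side in GMP. The effect in LSK minus that in GMP was 0.49 for Rpl12 and 0.35 for Rpl13 on the log2 scale, and neither difference passed the test (limma adjusted p = 0.149 and 0.178). For 10 named genes outside the members the test of the difference itself passed in limma, with adjusted p-values between 0.0016 and 0.0353. Others named above, such as Perp, Sesn1 and Ckap2, did not pass it. The effect was more positive in LSK by 1.14 for Ltv1 and 0.84 for Dkc1 (a pseudouridine synthase subunit), by 1.10 for Mrpl19 and 0.72 for Mrps27, by 0.67 for Eif3a and 0.48 for Ybx1, by 0.69 for Larp7 and 0.72 for Eif4e, and by 0.66 for Gtse1. It was -1.46 for Btg2, more negative in LSK. With an array left out, 4 of these calls were lost under at least 1 choice of array, with adjusted p-values of up to 0.0977 for Eif4e, 0.075 for Btg2, 0.069 for Ybx1 and 0.0661 for Gtse1. Over all settings run, Eif4e kept its call in 10 of 21, Btg2 in 12, Gtse1 in 16 and Ybx1 in 17, and the other 6 genes in all 21. These 10 genes were taken from those past the threshold in this same test, by smallest p in their list. That they passed is therefore no separate result.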

How the results depend on the processing

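No called value of a named gene turned its sign under any alternative run: of 848 such values 753 stayed past the threshold and 95 did not. Of 1423 values of named genes that were not called in the main fit, 94 turned their sign. Another count, 13 of the 1423, moved past the threshold with the same sign. For KO against WT in LSK the members lower were 2 with array weights and 1 to 2 with an array left out (2 without replicate 2 of LSK WT). For KO against WT in GMP a fit of the 6 arrays compared called 0 higher and 0 lower, and leaving out an array called 0 to 1 higher and 1 to 2 lower (2 without replicate 1 or 3 of GMP KO). Without an array, 0 to 1 members were lower in the difference of the effects (1 without replicate 2 of LSK WT). For LSK WT against GMP WT the members higher were 3 with repeated quantile normalization, 2 without the dimmest 30% of genes, 7 with trend and robust options, 6 with array weights, 3 in the fit of 6 arrays, and 0 to 1 with an array left out. For LSK KO against GMP KO they were 1 with repeated quantile normalization, 1 with array weights, 0 in the fit of 6 arrays, and 1 to 4 with an array left out, when 0 to 1 were lower. Fitting all probe sets separately, added after seeing the data, called 2 higher and 2 lower for KO against WT in LSK, 1 higher and 3 lower in GMP, 4 higher and 0 lower for the difference of the effects, 2 higher and 3 lower for LSK WT against GMP WT, and 4 higher and 1 lower for LSK KO against GMP KO. Centring each array on its median gave member medians of -0.062 in GMP, 0.073 for the difference of the effects and -0.042 for LSK WT against GMP WT, so the sign of these small medians depends on the scaling. The causes were not tested. With the replicate number as a fixed block, the members called higher in LSK KO against GMP KO were 2, with Rpl22 at an adjusted p of 0.0545, the assembly factors higher in LSK KO were 5, and Eif4e had an adjusted p of 0.0555 for the difference of the effects. The block changed no other call named here.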
